A study of Mus musculus with 2 samples.

Results

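The cytosolic sulfotransferases are the enzymes of the Sult gene family, and 10 of them were examined in mouse liver: Sult2a1, Sult2a2, Sult2a4, Sult2a6, Sult1e1, Sult1a1, Sult1b1, Sult1c2, Sult1d1 and Sult5a1. A gene was taken as a member where a gene probe of the array carried a RefSeq transcript identifier of that symbol, which gave 14 probes for the 10 genes, of 27219 probes for 20652 genes in all. The members were proposed with these measurements in view, so their differences are a description and carry no test. The series holds 2 pools of liver RNA, 1 per group, each pool made from 5 male mice that were 8 weeks old when 1e9 plaque forming units of adenovirus went into the tail vein. The Ad-Ctrl pool received the control virus, and the Ad-378 pool received a virus labelled as overexpressing the microRNA miR-378. No strain is given. The protocols state collection 2 weeks after injection for both pools, whereas the description of the Ad-378 pool states 3 weeks. Each pool was hybridised to 1 single-colour Agilent array, so there is no replicate, and no value below carries a replicate spread or a p-value.

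Sulfotransferases of the cytosol move a sulfonate group from the donor PAPS (3'-phosphoadenosine 5'-phosphosulfate) onto a hydroxyl or amino group of a small molecule. The product is more soluble in water, binds receptors less well and is readily carried out of the cell. In the liver the Sult2a enzymes act on hydroxysteroids such as dehydroepiandrosterone and on bile acids, Sult1e1 inactivates estrogens, and the Sult1a, Sult1b, Sult1c and Sult1d enzymes act on phenols, iodothyronines, catecholamines and drugs. Several of these genes, above all those of the Sult2a group, are known as female-biased in mouse liver.

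The promoters of the Sult2a copies are shown because members of this group lay furthest below in the Ad-378 pool and share long runs of letters. The sequences are from RefSeq, build GRCm38.p6, read 5' to 3' along the gene, and the promoter table was used for 8 of the 10 members, without Sult2a1 and Sult2a2. Capitals mark the nuclear receptor core motifs AGGTCA and AGTTCA on either strand, the run TCATGAAC, and GTTAATGATTTTTTA, the longest run of letters common to the windows of Sult2a3, Sult2a4, Sult2a5 and Sult2a6. Sult2a4 lies at chr7:13989671-13989838 and Sult2a6 at chr7:14254917-14255084, both on the minus strand. Sult2a3 lies at chr7:14123075-14123242 on the minus strand and Sult2a5 at chr7:13623796-13623963 on the plus strand. Sult1e1, shown for contrast, lies at chr5:87591612-87591779 on the minus strand.
Sult2a4: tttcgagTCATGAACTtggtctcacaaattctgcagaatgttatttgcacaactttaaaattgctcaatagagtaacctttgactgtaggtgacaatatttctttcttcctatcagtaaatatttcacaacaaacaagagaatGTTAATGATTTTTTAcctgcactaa
Sult2a6: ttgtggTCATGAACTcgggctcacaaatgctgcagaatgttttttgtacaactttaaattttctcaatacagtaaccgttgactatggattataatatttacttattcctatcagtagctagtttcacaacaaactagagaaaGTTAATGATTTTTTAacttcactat
Sult2a3: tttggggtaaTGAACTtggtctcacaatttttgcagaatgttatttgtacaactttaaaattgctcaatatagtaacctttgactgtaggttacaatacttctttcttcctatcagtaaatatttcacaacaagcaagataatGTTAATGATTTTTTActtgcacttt
Sult2a5: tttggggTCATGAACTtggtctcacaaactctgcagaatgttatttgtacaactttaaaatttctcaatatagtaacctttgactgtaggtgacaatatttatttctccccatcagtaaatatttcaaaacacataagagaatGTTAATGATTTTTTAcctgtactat
Sult1e1: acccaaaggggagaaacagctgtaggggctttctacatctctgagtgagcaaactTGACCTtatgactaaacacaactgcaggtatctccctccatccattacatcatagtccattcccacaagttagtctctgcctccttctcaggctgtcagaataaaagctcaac

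The run TCATGAAC overlaps an AGTTCA match on the other strand. An inverted pair of such core motifs without a spacer is known from rodent Sult2a genes as a nuclear receptor element. Within the 250 bases before the annotated start TCATGAAC was present for Sult2a4, Sult2a5 and Sult2a6, and in 0.496% of all 32851 promoter windows of the table. GTTAATGATTTTTTA was present in 4 windows of the table, those of Sult2a3, Sult2a4, Sult2a5 and Sult2a6. It began 136 bases after TCATGAAC in Sult2a4 and Sult2a5 and 137 bases after it in Sult2a6. Both runs were picked after reading these sequences, so where they occur is a description. AGTTCA itself was present in 11.8% of all windows and in those of Sult1b1, Sult1d1, Sult2a3, Sult2a4, Sult2a5, Sult2a6 and Sult6b2. AGGTCA was present in 14% of all windows, among them those of Sult1b1, Sult1e1 and Sult2a8.

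The STAT motif TTCNNNGAA was found in 7.02% of all windows and in Sult3a1 of the family, and the C/EBP motif TTGCNNAA in 9.56% of all windows and in Sult2a3, Sult2a4 and Sult2a8. The E-box CACGTG (6.02% of windows), the HNF4 motif CAAAGTCCA (0.384%) and the palindromic HNF1 motif (0.00913%) were found in 0 family windows. Both strands were searched. By local alignment, Sult2a4 and Sult2a6 shared 172 of 200 aligned bases (86% identity), and Sult2a4 and Sult2a3 shared 178 of 192 (92.7%). Sult2a8, from the same gene cluster, aligned with Sult2a4 over 14 bases only, and neither TCATGAAC nor GTTAATGATTTTTTA was in its windows. A match or a missing match in these windows says nothing by itself about binding.

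The array read 43020 gene spots per pool, of which 63.1% (Ad-Ctrl) and 65.7% (Ad-378) were well above background, and no spot was saturated. Hepatocyte markers were present as the label states: all 13 with a probe were well above background on both arrays, with log2 differences from -0.16 to 0.35. Of the markers of other cells, all 11 measured Kupffer cell and macrophage genes had a negative log2 difference (Ad-378 minus Ad-Ctrl, median -0.82), as did 10 of 11 stellate cell and fibroblast genes (-0.80) and 9 of 10 sinusoidal endothelial genes (-0.27), where 46.1% of all measured genes had one. Positive differences were seen for 5 of 6 cholangiocyte genes (median 0.67) and 5 of 5 B and plasma cell genes (0.57). T and NK cell, neutrophil and erythroid lists had medians of -0.41, -0.30 and -0.13. The summed signal, in units of the 75th percentile of each array, was 1671 in Ad-Ctrl and 1859 in Ad-378 for hepatocyte genes, 137.5 and 73.9 for macrophage genes, 85.28 and 50.07 for stellate genes, and 3.602 and 8.324 for cholangiocyte genes. Most of the cholangiocyte sum came from Spp1, which read 2344 in Ad-Ctrl and 4997 in Ad-378 before scaling. The cholangiocyte gene with a negative difference was Krt19 (-0.36). The part of these shifts in the sulfotransferase values was not tested. In bulk RNA, fewer cells of a type and less RNA per cell cannot be told apart.

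Of the 10 members, 8 were well above background on both arrays, and Sult2a4 and Sult2a6 were so in the Ad-Ctrl pool only. Among the 8, the Ad-378 signal was lower by 2-fold or more for 3 (Sult2a1, Sult2a2 and Sult1e1) and higher by 2-fold or more for 1 (Sult5a1). The array-wide background was 4.51% of 14288 genes lower by that much and 2.83% higher. Nothing is read from these shares, since the members were chosen from this comparison. The median log2 difference of the 8 was -0.79, beside 0.04 for all 14288 genes. Arrays were scaled to their 75th percentile before subtraction (800.4 for Ad-Ctrl, 695.2 for Ad-378). The error beside a difference is the scanner's own error of both spots, which leaves out differences between mice.

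**Figure D1:**
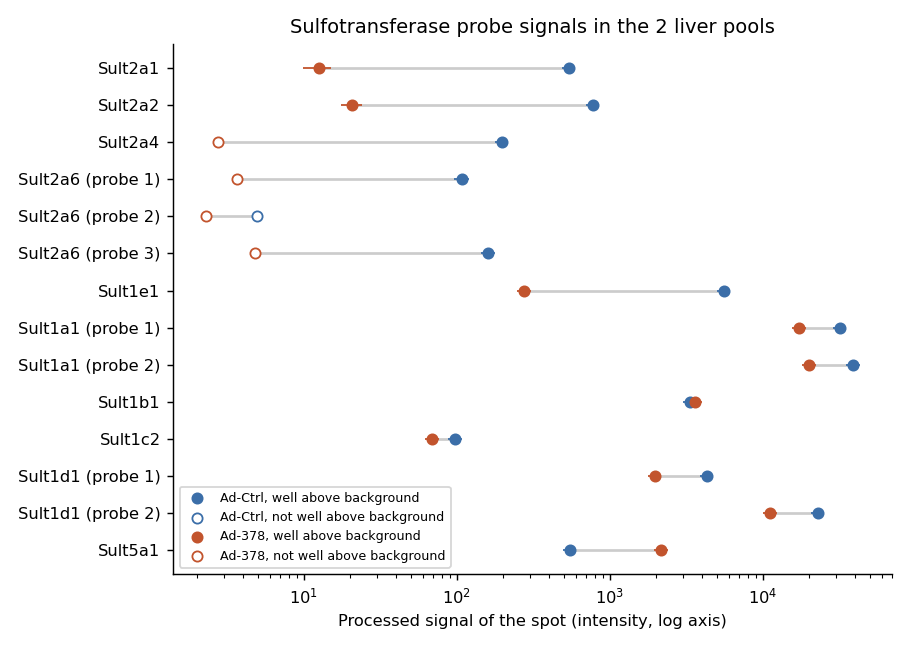
Processed signal (horizontal log axis, intensity before scaling) of the 14 member probes, a pair of points per probe, blue for Ad-Ctrl and orange for Ad-378; bars on filled points are the scanner error, open points were not well above background and carry no bar. Points of the Sult2a and Sult1e1 probes detected in Ad-Ctrl lie far apart, from 5605 to 276.9 for Sult1e1, while Sult1b1 points nearly coincide and Sult5a1 runs the other way.

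The hydroxysteroid sulfotransferases Sult2a1 and Sult2a2 were the members with the largest differences. The Sult2a1 probe read 543.8 (scanner error 54.47) in Ad-Ctrl and 12.53 (2.664) in Ad-378. The log2 difference was -5.24 with a scanner error of 0.34, or 37.7-fold lower, with a 95% range of the scanner error from 23.8-fold to 59.7-fold. The Sult2a2 probe read 777.8 (77.87) and 20.83 (3.396), a log2 difference of -5.02 with an error of 0.28, or 32.4-fold lower. In both genes the Ad-Ctrl signal was below the 75th percentile of its array, which was 800.4. The Ad-378 signal lay just above the detection limit of its array, where the lowest signal well above background was 11.32.

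The size of these 2 folds depended on how background was treated. Before any background was taken off, the Sult2a1 spot had a median of 672 over a local background of 42 in Ad-Ctrl, and 67 over 41 in Ad-378. For Sult2a2 the medians were 747 over 22 and 62 over 22. The deposited series matrix holds these medians and gave log2 differences of -3.12 for Sult2a1 and -3.39 for Sult2a2. The normexp background correction gave -2.86 and -2.79. A second normexp fit, added after the counts from the first were seen and fitted without spots that carry an outlier mark, gave -3.03 and -2.96. Each of these values is past 2-fold in the same direction.

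Sult2a4 and Sult2a6, further copies of the hydroxysteroid group, had signal in the Ad-Ctrl pool only. The Sult2a4 probe read 198 (scanner error 20.12) in Ad-Ctrl and 2.775 (2.766) in Ad-378, where it was not well above background. Against the lowest detectable signal of the Ad-378 array this is at least 15.2-fold lower. Sult2a6 had 3 probes. They read 161.3, 108.7 and 4.939 in Ad-Ctrl and 4.808, 3.653 and 2.299 in Ad-378, and the brighter pair gave bounds of at least 12.4-fold and at least 8.34-fold lower. The dimmest Sult2a6 probe was not well above background in either pool and bears on neither bound. Among the 338 genes detected in Ad-Ctrl only, 37.6% had a bound of at least 2-fold, and the bounds of Sult2a4 and Sult2a6 were the 3rd and 4th largest of the 338. The series matrix gave smaller bounds of 4.36-fold for Sult2a4 and 3.41-fold for Sult2a6. Normexp gave 3.97-fold and 3.52-fold, and the added normexp fit 3.4-fold and 2.78-fold.

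Several Sult2a genes are known as close copies of each other, so a probe made for 1 copy may bind transcripts of another. This was not tested, since no probe sequences were at hand. The 4 Sult2a members are therefore not taken as 4 independent measurements. Counted as 1 gene they leave 2 measured units lower by 2-fold or more, these 4 Sult2a copies and Sult1e1. The Sult2a group was not lower throughout, since Sult2a8 and Sult2a7 had log2 differences of 2.04 and 0.95. Sult2a3 had 1 probe, which read 5.93 in Ad-Ctrl and 2.781 in Ad-378 and was not well above background in either pool. Sult2a5 had no probe on this array under the identifiers used here.

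Sult1e1, the estrogen sulfotransferase, was lower by a similar order. Its probe read 5605 (scanner error 560.5) in Ad-Ctrl and 276.9 (27.84) in Ad-378, both far above the detection limit. The log2 difference was -4.14 with an error of 0.20, or 17.6-fold lower with a 95% range of 13.3-fold to 23.2-fold. Across 9 processing settings the difference ran from -4.18 to -3.60, a narrower span than for Sult2a1 (-5.30 to -2.86) and Sult2a2 (-5.06 to -2.79). Each of these genes has a single probe, so the mean over probes and the unfiltered setting had to repeat the main value. Ranked over the same 14288 genes, Sult1e1 was 4th from the lowest, behind Sult2a1 and Sult2a2 in the 1st and 2nd place. Under both normexp fits and with series matrix values Sult1e1 was the lowest of all. Sult2a1 then lay between the 3rd and 5th place and Sult2a2 between the 3rd and 7th.

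**Figure D2:**
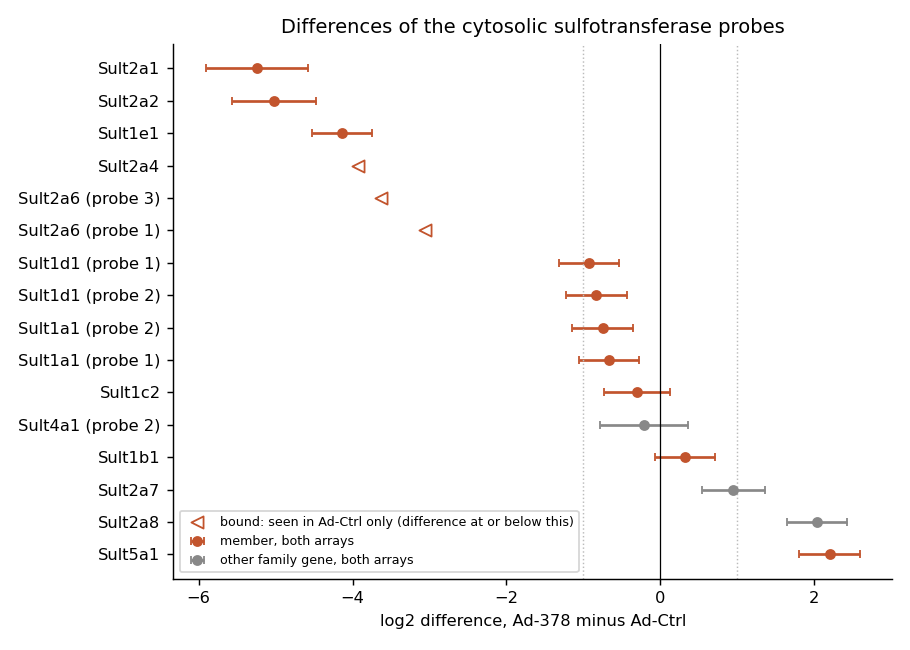
Log2 difference, Ad-378 minus Ad-Ctrl (horizontal axis), of every family probe well above background on at least 1 array; bars are 95% ranges of the scanner error, open triangles mark probes seen in Ad-Ctrl only, whose difference lies at or below the mark, and dotted lines mark 2-fold. The probes of Sult2a1, Sult2a2, Sult2a4, Sult2a6 and Sult1e1 shown stand below -3, Sult1a1 and Sult1d1 probes between -0.93 and -0.67, Sult2a7 at 0.95, and Sult2a8 and Sult5a1 above 2.

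Sult1a1 and Sult1d1 were lower by less than 2-fold, and the probes of each gene gave nearly the same value. Sult1a1, the main phenol sulfotransferase of liver, read 39244 and 31827 at its probes in Ad-Ctrl and 20203 and 17399 in Ad-378. The log2 differences were -0.75 and -0.67, each with a scanner error of 0.20, or 1.69-fold and 1.59-fold lower. Sult1d1, which acts on catecholamines and other phenols in the mouse, read 22991 and 4341 in Ad-Ctrl and 11247 and 1978 in Ad-378, with differences of -0.83 and -0.93. All 4 probes were lower in the Ad-378 pool, and the scanner's 95% range excluded 0 for each. It ran from -1.15 to -0.35 for the brighter Sult1a1 probe and from -1.23 to -0.43 for the brighter Sult1d1 probe. This range holds no variation between mice, pools or hybridisations, so it is not a test. Probes on the same arrays are not replicates. Array-wide, 2977 of 14288 genes were past 1.5-fold in either direction. Under quantile and lowess normalization Sult1a1 had -0.92 and -0.93, and Sult1d1 had -0.98 under both. Under normexp they had -0.59 and -0.64.

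Sult1b1 and Sult1c2 had differences whose scanner range held 0, which describes the spots and is no test of the groups. Sult1b1, which acts on thyroid hormones as well as phenols, read 3339 (scanner error 333.9) in Ad-Ctrl and 3628 (362.8) in Ad-378. Its log2 difference of 0.32 had a 95% range of -0.08 to 0.72. Sult1c2, a phenol sulfotransferase, was dim at 98.18 (10.45) and 69.38 (7.43), with a difference of -0.30 and a range of -0.72 to 0.13. These ranges hold differences of up to 1.65-fold in either gene. The value of Sult1c2 depended on the background correction, at -0.76 under normexp and -0.06 under the added normexp fit.

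Of the 10 members, Sult5a1 alone was higher in Ad-378 by 2-fold or more. Its physiological substrate is not well established. The probe read 547.5 (scanner error 54.85) in Ad-Ctrl and 2184 (218.4) in Ad-378, a log2 difference of 2.20 with an error of 0.20, or 4.59-fold higher with a 95% range of 3.48-fold to 6.06-fold. It was the 31st highest of the 14288 genes, and its difference lay between 1.89 and 2.20 under all 9 settings. The main values count among the 9. With a single probe detected on both arrays, the mean over probes and the unfiltered setting had to repeat them.

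Among the 11 other genes of the family that were listed beside the members, 10 had a probe and 3 were well above background on both arrays: Sult2a8, Sult2a7 and Sult4a1. Sult2a8, a liver enzyme that sulfates bile acids, read 6040 (scanner error 604.1) in Ad-Ctrl and 21590 (2159) in Ad-378. Its log2 difference of 2.04 (error 0.20), or 4.11-fold higher, made it the 37th highest gene, against the direction of Sult2a1, Sult2a2, Sult2a4 and Sult2a6. Sult2a7 read 142.8 (14.63) and 240.1 (24.12), a difference of 0.95 (0.21), and lay between 0.28, under normexp, and 0.97 over the 9 settings. Sult4a1, a sulfotransferase-like protein best known from brain, was dim at 34.93 and 26.24 and differed by -0.21 (0.29). Its other probe was not well above background in either pool. It ranged from -1.04 under normexp to 0.02 with series matrix values, so its sign is not settled. The other 7 genes with a probe, Sult1c1, Sult2a3, Sult2b1, Sult3a1, Sult3a2, Sult6b1 and Sult6b2, were not well above background in either pool. Their signals lay between 2.781 and 9.352, so neither a level nor a fold is given. Sult3a1, a female-biased amine sulfotransferase, was thus below detection in the control pool too.

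The order of the genes on the chromosomes divides the detected Sult2a genes. RefSeq places the protein-coding genes of the cluster on chromosome 7 in the order Sult2a5, Sult2a2, Sult2a1, Sult2a4, Sult2a3, Sult2a6, Sult2a8 and Sult2a7. The 4 members with lower signal lie in a row that holds no other gene than Sult2a3, and Sult2a8 and Sult2a7, both higher, are neighbours at the Sult2a6 end. Sult2a7 was higher by less than 2-fold (0.95, or 0.28 under normexp). Sult2a3 was not detected and Sult2a5 had no probe, so neither can be placed on a side. Because probes may bind other copies, the 4 members are not independent readings. Of the 5 genes on either side of the cluster, 3 were well above background on both arrays. These were the DNA ligase gene Lig1 (log2 difference -1.41), Cabp5 (0.08) and Obox1 (-0.01). On chromosome 5 the order Sult1b1, Sult1d1, Sult1e1 went with differences of 0.32, -0.83 and -4.14. The glucuronosyltransferase genes on the Sult1b1 side, Ugt2a1 (0.97), Ugt2b38 (0.14), Ugt2a3 (0.39) and Ugt2b37 (0.17), had positive values. On the Sult1e1 side lie casein genes, of which Csn1s2b alone was measured (0.02). Both strings of genes were looked at after the values were seen.

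**Figure D3:**
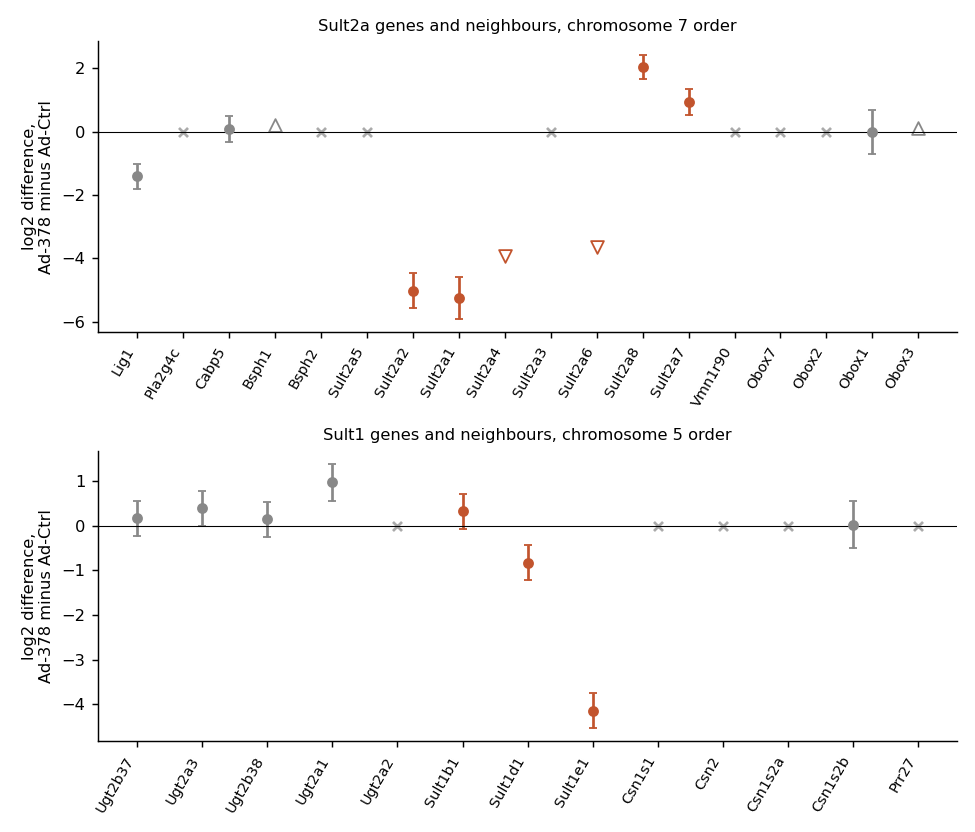
Log2 difference, Ad-378 minus Ad-Ctrl, by gene order (horizontal axis, not to distance) for the Sult2a cluster (top) and the Sult1 cluster (bottom), with 5 neighbours on either side in grey; bars are 95% ranges of the scanner error, open triangles are bounds of genes seen in 1 pool only, and crosses at 0 mark genes without a measurement. Sult2a2, Sult2a1, Sult2a4 and Sult2a6 lie below -3 and the adjacent Sult2a8 at 2.04.

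Outside the sulfotransferase family, the genes whose difference came nearest to that of Sult2a1 or Sult1e1 were the same 5 for both: Serpina7 (-4.24), S100g (-4.01), Pcdh20 (-3.84), Lockd (-3.83) and Sprr1a (-3.81). Serpina7 encodes thyroxine-binding globulin and S100g a calcium-binding protein. The nearest of these lay 0.11 log2 units from Sult1e1 and 0.99 from Sult2a1. Family genes were left out of the search, and Sult2a2, at -5.02, lay nearer to Sult2a1 than any of the 5. With them out, the 5 are the lowest genes left. That Sult2a1 and Sult1e1 share these 5 follows from their ranks at the low end and shows no further likeness. Likeness here is closeness of a single difference over 2 arrays.

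Genes that supply the sulfonate donor lay near 0. All 5 measured genes of PAPS synthesis, transport and breakdown were within 2-fold. So were most genes of the array, where 1050 of 14288 were past 2-fold in either direction. The PAPS synthase genes Papss1 and Papss2 had log2 differences of -0.29 and 0.23, the Golgi PAPS transporter gene Slc35b3 had -0.13, and the phosphatase genes Bpnt1 and Bpnt2, which clear the spent donor, had 0.14 and -0.07. Papss2 read 26378 in Ad-Ctrl and 26942 in Ad-378. The list median was -0.07, and 0.01 under normexp. Of 12 measured genes of sulfate uptake and of sulfate formation from cysteine, 1 was past 2-fold, the mercaptopyruvate sulfurtransferase gene Mpst, which read 2530 in Ad-Ctrl and 4692 in Ad-378 (log2 difference 1.09). The median of 0.10 turned to -0.03 and -0.06 under quantile and lowess normalization.

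Enzymes that remove or add sulfate elsewhere in the cell were mostly within 2-fold, as were most genes. Of all 14288 genes, 1050 were past 2-fold in either direction. Of 12 measured sulfatases and activators, 10 had a negative difference (median -0.20), where 46.1% of all measured genes had one. The arylsulfatase gene Arsg, a lysosomal enzyme, was the single gene past 2-fold, at 7991 in Ad-Ctrl and 22375 in Ad-378 (log2 difference 1.69). Of 20 measured sulfotransferases of the Golgi, which act on proteins, lipids and glycans and are separate from the cytosolic family, 2 were past 2-fold, Gal3st2 at 1.74 and Ust at -1.01. Both were dim. Gal3st2 had -0.09 under normexp and 0.92 under the added fit, and Ust had -1.14 and -0.19. The list median was 0.03, and -0.32 under normexp.

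**Figure D4:**
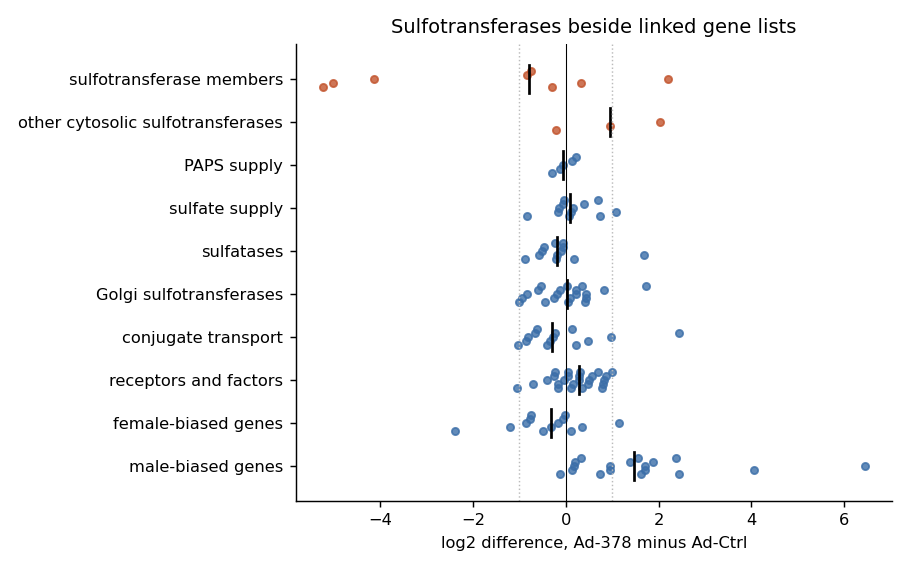
Log2 difference, Ad-378 minus Ad-Ctrl, of each gene well above background on both arrays (points) in the members, the rest of the family and the linked lists, with the median of each list as a black bar and dotted lines at 2-fold. The members spread from -5.24 to 2.20, while the 5 PAPS genes lie between -0.29 and 0.23.

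Carriers of sulfate conjugates differed in both directions. Of 14 measured, 2 were past 2-fold: the uptake carrier gene Slco1a1 at 2.44 and the exporter subunit gene Slc51b at -1.03. Array-wide, 1050 of 14288 genes were past 2-fold in either direction. Slc51b had -0.52 under the added normexp fit. The list median was -0.30. Among 25 measured nuclear receptors and factors reported to act on sulfotransferase genes, 1 was past 2-fold, and the median was 0.28, or 0.13 under quantile and lowess normalization. The gene past 2-fold was the vitamin D receptor gene Vdr, which was dim (44.92 and 18.77) and had -1.06, or -0.28 under the added normexp fit. The pregnane X receptor Nr1i2 had -0.25, the constitutive androstane receptor Nr1i3 0.34, the bile acid receptor Nr1h4 0.49, Ppara 0.86 and Hnf4a -0.16.

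Since Sult2a genes are known as female-biased, other sex-biased liver genes were set beside them. Of 13 measured female-biased genes that are not sulfotransferases, 10 had a negative log2 difference and 3 a positive one, where 46.1% of all genes had a negative one. Cyp2b9 had a log2 difference of -1.20 (-0.98 under normexp) and Acot3 had 1.15 (0.83 under normexp). The list median was -0.31, and none of the 13 was as low as Sult2a1, Sult2a2 or Sult1e1. Of 18 measured male-biased genes, 10 were past 2-fold, all upward, beside 2.83% of all genes higher by that much. These 10 were led by Moxd1 (6.46), Hsd3b5 (4.05), Slco1a1 (2.44), Elovl3 (2.37), Cspg5 (1.87, but -0.12 under normexp) and Cyp7b1 (1.71). The list median was 1.47, or 1.07 under the added normexp fit. These lists were drawn up with earlier results of the same arrays known and support nothing by themselves.

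**Figure D5:**
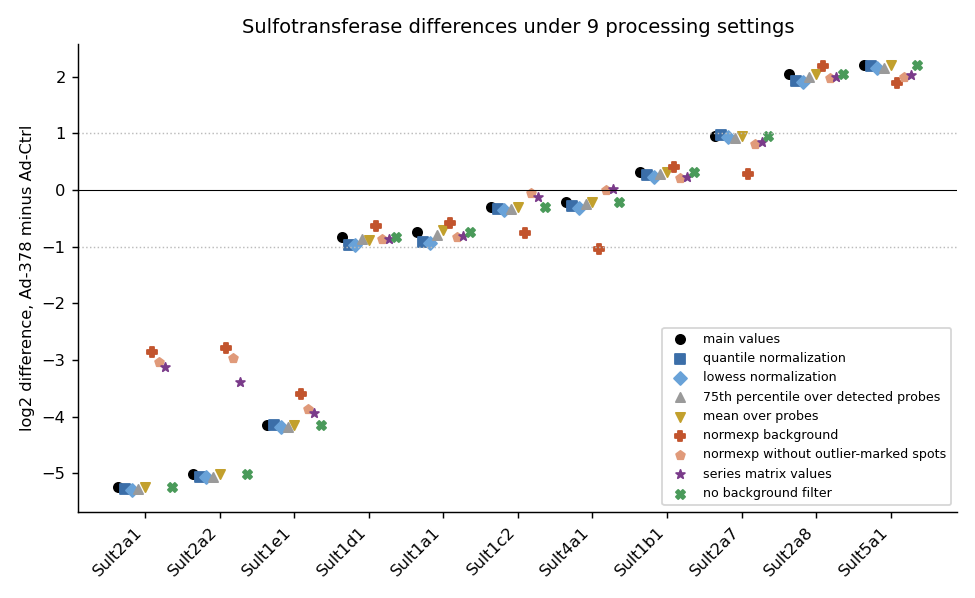
Log2 difference, Ad-378 minus Ad-Ctrl (vertical axis), of the 11 family genes well above background on both arrays under 9 processing settings, a symbol per setting, with dotted lines at 2-fold. Symbols lie closest together for Sult1a1, Sult1b1, Sult1d1, Sult2a8 and Sult5a1. Sult2a1 and Sult2a2 move to between -3.39 and -2.79 with series matrix values and both normexp fits. Under normexp Sult4a1 reaches -1.04, Sult1c2 -0.76, Sult2a7 0.28 and Sult1e1 -3.60.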

How the data were processed

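Per the labels, Cy3-labelled cRNA was made from 0.5 micrograms of total RNA per pool, and the extraction text describes a blood kit, whereas liver is the stated tissue. The deposited scanner files hold spot intensities on a linear scale, with background subtracted and, per the file headers, spatial detrending on each array. Nothing scales 1 array to the other. They also hold other columns, the flags of 0 or 1 that the authors' scanner software set. Feature Extraction is version 9.1 per the submitters' processing notes and 11.0.1.1 per the file headers. The deposited series matrix equals the raw median signal in 100% of values (column medians 103 in Ad-Ctrl and 95 in Ad-378). Its scale is linear and uncentred.

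Control spots and 123 outlier gene spots per array were left out. Values were log2 of the processed signal minus the array's 75th percentile. Probes were named through RefSeq identifiers of GRCm38.p6. The array headers name mm9, so gene coordinates are not given, only those of the RefSeq promoters. Of a gene's probes detected on both arrays, the brightest gave its value. A gene detected on 1 array has a bound against the lowest detected signal of the other. The number of arrays limits the precision, and no test was possible. The arrays share a scan identifier. The members and lists, and the rule naming list genes past 2-fold (at most 6 each), were chosen with earlier results of these data known. The calling steps were tested on data simulated from the Ad-Ctrl signals and their scanner error alone. The simulation held no variation between mice, pools or hybridisations, so it says nothing about how the calls would repeat. Alternatives were other normalizations, probe rules, background corrections, filters and thresholds. Normexp was planned on all spots. After that fit gave an Ad-Ctrl background mean of -175.1, beside a lowest background-subtracted spot of -6224, and its counts were seen, a fit without the 331 (Ad-Ctrl) and 489 (Ad-378) spots with an outlier mark was added; both are given. The planned protein comparison was not run. A gene that the naming rule covers is not reported here. Python 3.11.15, pandas 2.3.3, statsmodels 0.14.6, Biopython 1.88 and limma 3.58.1 were used.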

Additional observations from a re-analysis of the deposited data

How the results depend on the processing

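No paired analysis was possible because there is a single array in each group. The alternatives were quantile and lowess normalization, another 75th percentile, the mean over probes, normexp (offset 50), the series matrix values, no background filter, and thresholds of 1.5-fold and 3-fold. A normexp fit without outlier-marked spots was added after the counts of the planned normexp fit had been seen, so it was chosen after seeing the data. Under the planned normexp fit Sult2a1 had -2.86, Sult2a2 -2.79, Sult1e1 -3.60 and Sult1c2 -0.76. The bounds were 3.97-fold for Sult2a4 and 3.52-fold for Sult2a6, and the median of all genes moved from 0.04 to -0.15. Under the added fit Sult2a1 had -3.03, Sult2a2 -2.96, and the bounds were 3.4-fold and 2.78-fold. With matrix values these were -3.12, -3.39, 4.36-fold and 3.41-fold. Matrix values still hold the background, and normexp adds its offset to every spot. The share of either in these shifts was not tested. Members lower by 2-fold or more numbered 3 under each normalization and background correction, 5 with no background filter, which lets in Sult2a4 and Sult2a6, and 5 past 1.5-fold, which lets in Sult1a1 and Sult1d1. Of all genes, 645 were lower and 405 higher, against 1205 and 178 under planned normexp, 353 and 200 under the added fit, 394 and 222 with matrix values, and 1164 and 1059 unfiltered. Moving the threshold to 1.5-fold gave 1721 lower and 1256 higher genes, and 3-fold gave 201 and 106. The Sult2a signals of Ad-378 lay near the detection limit, which limits what their folds can show, and with 1 array per group no difference has a replicate check.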
